A study of Mus musculus with 6 samples.

Results

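The nuclear receptor genes and the genes of their coregulators were examined in mouse macrophages grown from bone marrow monocytes. The set held 39 of the 24411 genes in the deposited tables. Of these, 18 carried a systematic nuclear receptor symbol (Nr, a digit, a letter and a digit) and 21 were listed by name, and 7 systematic symbols (the Nr4a early response genes, the liver X receptors and the Rev-erb genes) were left out by the rule. In all, 32 genes of the set encode receptors and 7 encode coregulators.

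Monocytes of C57BL/6 mice, an inbred strain, had been sorted from bone marrow by flow cytometry into an LFA1-lo Itgam-lo and an LFA1-hi Itgam-hi fraction. LFA1 and Itgam are adhesion receptors of leukocytes. Both fractions were then cultured for 7 days with 20 ng/ml M-CSF, the growth factor that turns monocytes into macrophages, and 10% serum, with fresh medium on day 4. Each group had 3 libraries, called LFA1-lo and LFA1-hi below, and the only comparison that the labels imply is between these groups. The labels give no genetic change, no age, no sex and no number of animals, and whether replicate libraries stem from different mice or different dishes is not stated. The p-values therefore reflect the scatter among these 6 libraries, which may be technical.

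Nuclear receptors are transcription factors that bind DNA through zinc fingers and change their activity when a small lipid-soluble ligand, such as a steroid, retinoic acid, a fatty acid, vitamin D or thyroid hormone, fills their ligand pocket. Retinoic acid receptors (RARs), peroxisome proliferator-activated receptors (PPARs), thyroid hormone receptors and the vitamin D receptor act as heterodimers with a retinoid X receptor (RXR), whereas steroid receptors act mostly as homodimers. Without ligand many of them hold corepressors such as NCoR on DNA, and ligand exchanges these for coactivators. In macrophages PPARs, RARs and RXRs are known for their part in lipid handling, and the glucocorticoid receptor for restraining inflammatory genes.

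Summed expected counts were between 15191262 and 17614509 per library. All 10 macrophage markers examined passed the filter on low counts, with summed levels of 17800 to 23200 CPM (counts scaled to library size) in LFA1-lo and 13700 to 16000 CPM in LFA1-hi. Of these, 6 were lower and 1 higher in LFA1-hi, beside 15.6% lower and 16.1% higher among all tested genes. The macrophage sums were mostly Lyz2, at 10330 to 15020 CPM in LFA1-lo and 8848 to 10750 CPM in LFA1-hi. Lyz2 overlapped between the groups and is counted among the lower markers. Marker lists of B cells, T and NK cells, dendritic cells and erythroid cells summed to at most 1.17 CPM in any library, and Cd3e and Flt3 were at 0 in all libraries. Mast cell and basophil markers summed to 0.477 to 5.49 CPM, stromal markers to 1.25 to 3.31 CPM and progenitor markers to 4.27 to 5.36 CPM, of which Kit was lower in LFA1-hi (15, 21 and 15 counts against 6, 0 and 1 counts). Neutrophil markers were at 67.6 to 77.8 CPM in LFA1-lo and 23.8 to 28.6 CPM in LFA1-hi, with 3 of 4 tested lower. Among these was Csf3r, which made up most of the sums, at 49.6 to 59.5 CPM in LFA1-lo and 19.1 to 25.0 CPM in LFA1-hi. All 8 cell cycle markers were higher in LFA1-hi (summed 568 to 959 against 2060 to 2300 CPM). LFA1-lo replicate 2 differed from its group for many members, as described below. Over all tested genes its log2 CPM had Pearson correlations of 0.9721 and 0.9692 with LFA1-lo replicates 1 and 3, which correlated at 0.9794. Within LFA1-hi the correlations were 0.9844 to 0.988. The part of these differences in the results that follow was not tested, and in cultures measured as bulk RNA fewer cells of a type and less RNA per cell cannot be told apart.

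The receptors and coregulators were lower in LFA1-hi macrophages wherever they passed the test. Of the 39 genes 24 had enough counts to be tested, and of these 10 were called lower and 0 higher in edgeR's quasi-likelihood test at an adjusted p under 0.05 (Benjamini-Hochberg over all genes). The genes called lower were 6 receptors, Nr3c1, Nr3c2, Rara, Rarg, Rxrb and Pparg, and 4 coregulators, Ncoa1, Ncoa2, Ncoa4 and Nrip1. The members' share of 41.7% lower stands beside 15.6% lower, 16.1% higher and 31.7% called in either direction among all 11692 tested genes. Leaving aside Nr3c2, which passed the filter on low counts through its LFA1-lo libraries alone, 9 of 23 (39.1%) were lower. At an unadjusted p under 0.05, 16 members were lower and 0 higher, where 21.2% of all tested genes were lower. DESeq2 called 14 members lower, adding Rora, Nr2c2, Ncoa3 and Ncoa6, and 1 higher, the low-count gene Nr0b2, out of 27 with an adjusted p, beside 15.3% lower among the 13086 genes with an adjusted p there. With limma voom 0 members were called higher.

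Among the 24 tested genes the log2 fold change of LFA1-hi against LFA1-lo had a median of −0.39, where all tested genes had a median of 0.00. It was below 0 for 21 genes and above 0 for 3, Rxra, Vdr and Nr2c1, none of which passed. The 3 LFA1-hi libraries lay below all 3 LFA1-lo libraries for 13 of the 24 genes, against 22.9% of all tested genes. They lay above all 3 LFA1-lo libraries for 0 of the 24, against 2904 of all 11692 tested genes. Of the genes called lower, 3 differed by at least 2-fold, Nr3c2, Rarg and Ncoa4. Among all tested genes 445 of the 1822 called lower did so.

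**Figure D1:**
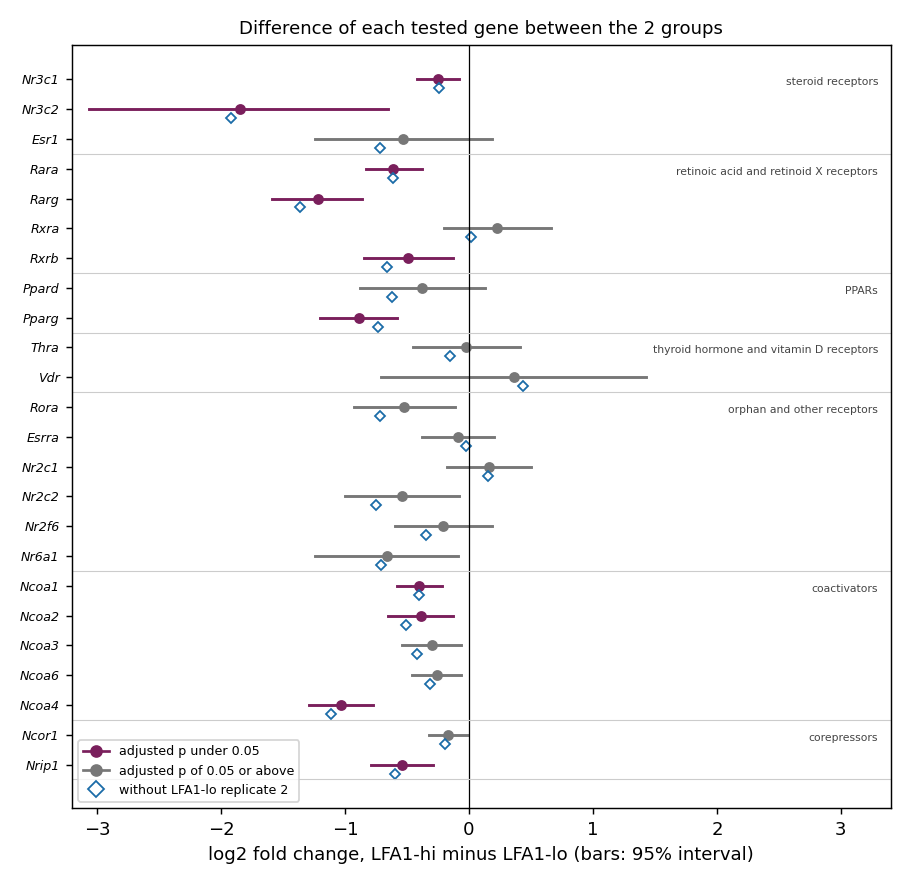
Log2 fold change of LFA1-hi minus LFA1-lo for the 24 tested genes (x axis) with 95% intervals, grouped by role, with purple for an adjusted p under 0.05 in edgeR's quasi-likelihood test and open diamonds for the fit without LFA1-lo replicate 2. All 10 genes drawn in purple lie left of 0, with Nr3c2 widest and Rarg and Ncoa4 beyond −1.

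Levels between genes were compared in TPM, which divides reads by transcript length. Ncoa4 was the highest member, at 168 ± 30.8 TPM in LFA1-lo and 80.7 ± 4.40 TPM in LFA1-hi (mean ± SD, n = 3 each, as throughout). Ncoa3 followed with 86.6 ± 14.8 and 69.0 ± 2.19 TPM, and Ncor1 with 54.8 ± 2.54 and 48.7 ± 1.57 TPM. In LFA1-lo Pparg, at 58.0 ± 10.7 TPM, had a higher mean than Ncor1, and their libraries overlapped. Pparg, Rxra and Nr3c1 were highest among the receptors of the set. Their means over all 6 libraries were 44.0, 42.6 and 41.3 TPM, which are not separated by the spread between libraries.

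Among the receptors of the set, without those left out by the rule, the leading one was not the same in the groups. In LFA1-lo libraries Pparg ranged from 51.6 to 70.3 TPM and lay above Nr3c1 (43.2 to 47.9 TPM) and Rxra (26.6 to 47.5 TPM), which overlapped each other. In LFA1-hi libraries Rxra was first with 44.0 to 47.5 TPM, Nr3c1 second with 36.1 to 38.6 TPM and Pparg lowest of these 3 with 26.9 to 31.9 TPM, with no overlap between neighbours. This is an order of levels, and the order itself was not tested.

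**Figure D2:**
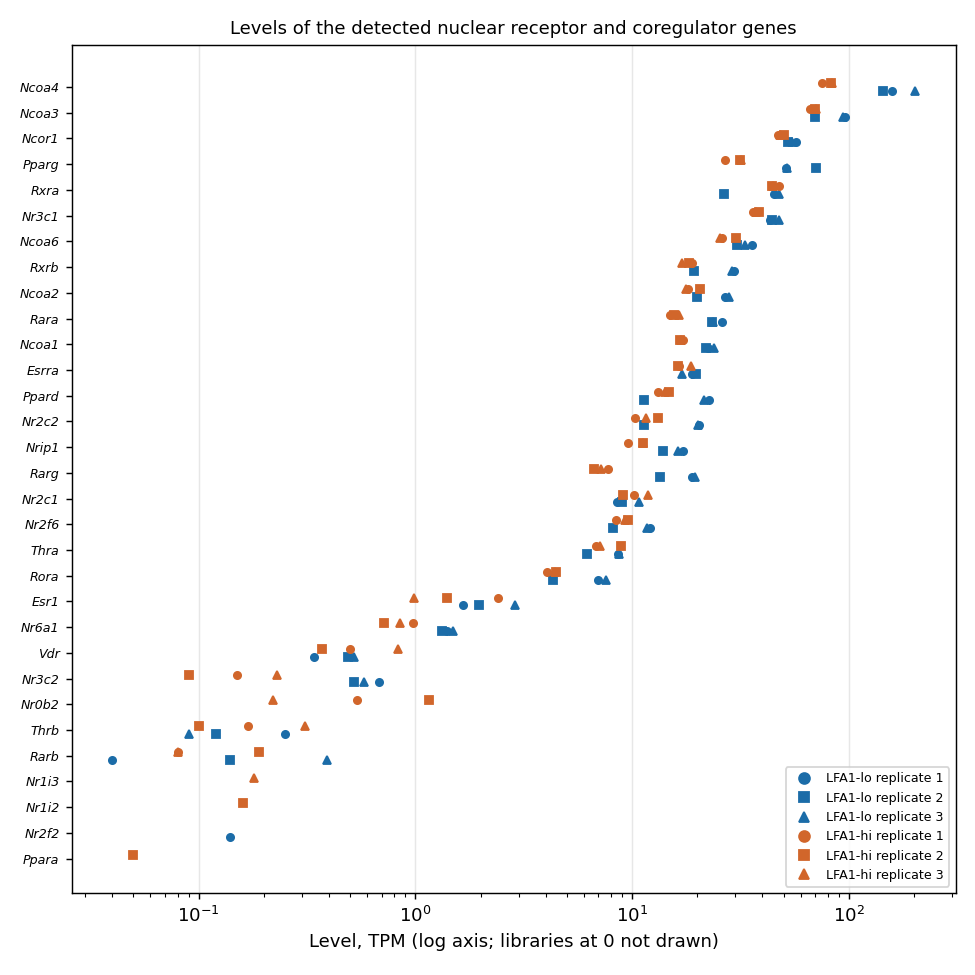
Level in TPM (x axis, log scale) of the 31 genes with a count above 0, in each library, ordered by the mean over all libraries, with blue for LFA1-lo and orange for LFA1-hi. Ncoa4 is highest, Pparg, Rxra and Nr3c1 lead the receptors of the set, and genes from Esr1 downwards have means below 2 TPM.

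Among the steroid receptors Nr3c1 was lower in LFA1-hi by a small amount, and the scarce Nr3c2 was called lower but could be tested only because it was high in LFA1-lo. Nr3c1, which encodes the glucocorticoid receptor, stood at 144, 154 and 161 CPM in LFA1-lo replicates 1 to 3 and at 126, 129 and 131 CPM in LFA1-hi replicates 1 to 3. The groups did not overlap, but the difference was small (log2 fold change −0.25, SE 0.08, edgeR adjusted p = 0.0341, 1.19-fold lower). The call was lost without LFA1-lo replicate 3 or any of the LFA1-hi libraries, where the adjusted p reached 0.125. Over all 6 fits without a library the log2 fold change lay between −0.29 and −0.21.

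Nr3c2, encoding the mineralocorticoid receptor, which binds aldosterone and also glucocorticoids, was scarce. It had 24, 18 and 21 counts in the LFA1-lo and 6, 3 and 9 counts in the LFA1-hi libraries. The groups did not overlap (1.27 ± 0.146 against 0.343 ± 0.157 CPM; log2 fold change −1.85, SE 0.54, edgeR adjusted p = 0.0267). Without LFA1-lo replicate 1 or 3, or with any 1 of the LFA1-hi libraries left out, it no longer passed, with an adjusted p of up to 0.108, and the predicted gene Gm10649 overlaps it.

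Esr1, the gene of estrogen receptor alpha, had 93, 74 and 165 counts in LFA1-lo and 102, 74 and 62 counts in LFA1-hi. Its groups overlapped (log2 fold change −0.53, 95% interval −1.24 to 0.19, edgeR adjusted p = 0.239). Of the steroid receptor genes outside the set, Esr2 was at 0 in all 6 libraries and Pgr had 1 count in LFA1-lo replicate 3 alone.

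Both retinoic acid receptor genes that could be tested were lower in LFA1-hi, in every fit run. Rarg, encoding the gamma receptor (GRCm38 chromosome 15, 102234938 to 102257522), stood at 26.0, 19.3 and 27.2 CPM in LFA1-lo replicates 1 to 3 and at 11.2, 9.30 and 10.5 CPM in LFA1-hi replicates 1 to 3. LFA1-lo replicate 2 was the lowest of its group and still lay above every LFA1-hi library (log2 fold change −1.22, SE 0.16, edgeR adjusted p = 0.000646, 2.34-fold lower). Leaving out 1 library at a time gave values between −1.36 and −1.13.

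Rara, encoding the alpha receptor (chromosome 11, 98927800 to 98974942), was at 42.7, 40.2 and 39.1 CPM in LFA1-lo and at 26.0, 25.7 and 28.5 CPM in LFA1-hi. Its libraries were close within each group, LFA1-lo replicate 2 included (log2 fold change −0.61, SE 0.10, edgeR adjusted p = 0.00187, 1.52-fold lower). The beta isotype, Rarb, which retinoic acid itself can induce, had 13 counts over the LFA1-lo and 8 over the LFA1-hi libraries and was not tested.

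The promoter windows of the genes called lower were searched for the hexamer AGGTCA, the core to which RARs, RXRs, PPARs and many orphan receptors bind, and for AGAACA, a hexamer of the steroid receptors, on both strands. The windows hold the 250 bases before each RefSeq start on GRCm38.p6, and 34 of the 39 genes had 51 such windows, while Nr3c1, Ncoa2, Ncoa3, Thra and Nr5a1 had none. AGGTCA or its reverse complement TGACCT was present in 10 of the 51 windows (19.6%), against 14.0% of all 32851 RefSeq promoter windows, and AGAACA or TGTTCT in 7 (13.7%), against 16.1% of all. Among the 18 windows of 8 genes called lower, 4 windows held AGGTCA, of Pparg, Rarg and Ncoa4. AGAACA was held by 3 windows, all of Ncoa4, among which overlapping windows share a match. A match is a description of the letters and not a binding site.

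The window at the 5′ end of Rarg is shown whole because Rarg differed most among the RARs, and 30 bases around the match are shown for the starts of Pparg (2 of 3) and Ncoa4 (1 of 3) whose windows hold it. Each runs 5′ to 3′ on the gene's strand, with the hexamer or its reverse complement in capitals. The Rarg window is chr15:102257523-102257772 on the minus strand, and its match begins 225 bases before the start.
Rarg: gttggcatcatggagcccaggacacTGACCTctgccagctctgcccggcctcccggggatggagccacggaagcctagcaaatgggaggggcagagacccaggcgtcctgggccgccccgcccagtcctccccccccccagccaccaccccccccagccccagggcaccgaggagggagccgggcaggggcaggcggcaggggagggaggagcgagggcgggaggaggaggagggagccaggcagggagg
The Pparg stretches are chr6:115361104-115361133 and chr6:115362328-115362357 on the plus strand, with matches 28 and 9 bases before the respective start.
Pparg, match 28 bases before its start: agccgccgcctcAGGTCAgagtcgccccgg
Pparg, match 9 bases before its start: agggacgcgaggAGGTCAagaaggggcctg
The Ncoa4 stretch is chr14:32165733-32165762 on the plus strand, 44 bases before the start.
Ncoa4: caaggcggggcgTGACCTggccggtagggt

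The RXR genes encode the shared partners of RARs, PPARs and many other receptors, and they differed from each other between the groups. Rxrb, the beta isotype, was at 37.3, 25.1 and 37.4 CPM in LFA1-lo replicates 1 to 3 and at 24.9, 23.9 and 22.1 CPM in LFA1-hi. LFA1-lo replicate 2 lay only just above the highest LFA1-hi library (log2 fold change −0.49, SE 0.16, edgeR adjusted p = 0.0414). The value was −0.66 (adjusted p = 0.000157) without that library. The call was lost without LFA1-lo replicate 1 or 3 or any 1 of the LFA1-hi libraries (adjusted p up to 0.145) and also with limma voom or on TPM.

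Rxra, the alpha isotype, was at 121.5, 74.2 and 128.6 CPM in LFA1-lo and at 134, 120.3 and 126 CPM in LFA1-hi. Only LFA1-lo replicate 2 was low, and the groups overlapped (log2 fold change 0.23, 95% interval −0.20 to 0.66, edgeR adjusted p = 0.392). Without LFA1-lo replicate 2 the value was 0.02 (adjusted p = 0.859). The gamma isotype, Rxrg, was at 0 in all 6 libraries.

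Within the RXR family the balance between isotypes differed in every library. Rxra made up 60.5%, 57.9% and 62.0% of the family's TPM in LFA1-lo and 71.5%, 70.7% and 72.3% in LFA1-hi. The groups did not overlap, and LFA1-lo replicate 2, low in both genes, had a share near those of the other LFA1-lo libraries. Likewise Rarg was 42.1%, 36.4% and 44.9% of the RAR family's TPM in LFA1-lo and 34.0%, 29.7% and 30.3% in LFA1-hi. With 3 libraries against 3 an exact permutation test cannot give a two-sided p below 0.1, so these shares are given as values without a test.

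**Figure D3:**
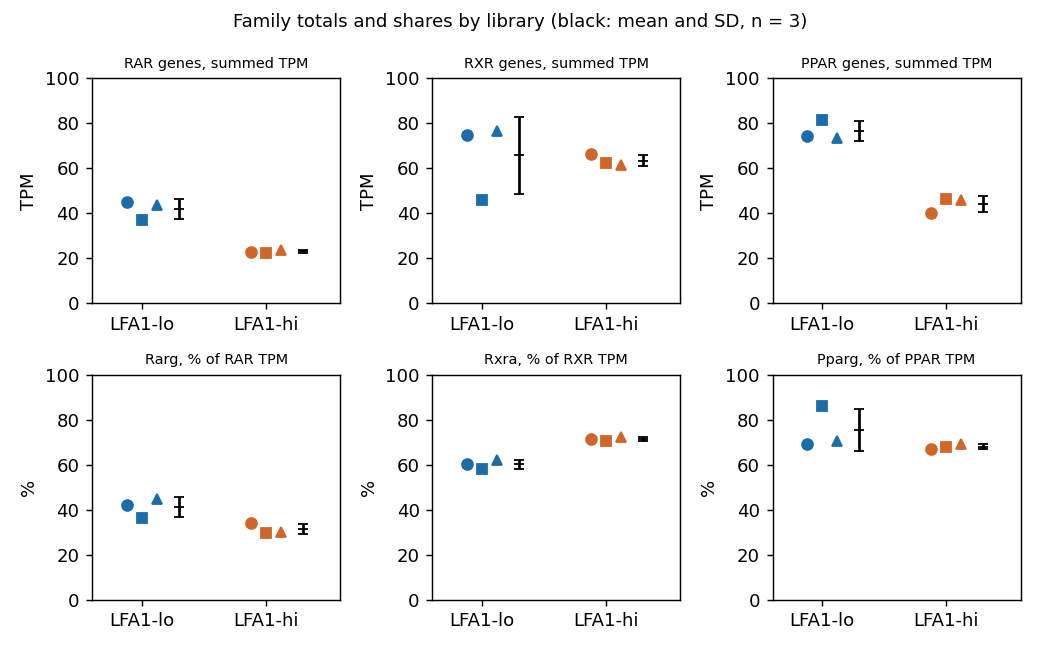
Summed TPM of the RAR, RXR and PPAR genes (top) and share of Rarg, Rxra and Pparg within their family in % of TPM (bottom), by library, with the mean and SD of each group in black (n = 3). RAR and PPAR totals and the shares of Rarg and Rxra do not overlap between the groups, whereas the RXR totals and the Pparg share do.

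Pparg, encoding the gamma PPAR that macrophages use to sense fatty acids and their oxidised products (chromosome 6, 115360879 to 115490404), was lower in LFA1-hi. It stood at 50.8, 68.4 and 50.3 CPM in LFA1-lo replicates 1 to 3 and at 28.3, 29.3 and 33.9 CPM in LFA1-hi. Here LFA1-lo replicate 2 was the highest library, and all LFA1-lo libraries lay above all LFA1-hi libraries (log2 fold change −0.89, SE 0.14, edgeR adjusted p = 0.00148, 1.85-fold lower). The call held in every fit run, and without LFA1-lo replicate 2 the value was −0.73 (adjusted p = 4.74e-05).

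Ppard, the delta isotype, went the other way in LFA1-lo replicate 2, with 37.2, 19.4 and 35.5 CPM in LFA1-lo against 22.5, 24.3 and 24.3 CPM in LFA1-hi. That library was the lowest of all 6, and the gene did not pass (log2 fold change −0.38, 95% interval −0.88 to 0.13, edgeR adjusted p = 0.235). Leaving that library out brought it past the threshold (−0.62, adjusted p = 0.000273). The alpha isotype, Ppara, had 3 counts in LFA1-hi replicate 2 alone. Summed over the family, PPAR genes were at 76.5 ± 4.47 TPM in LFA1-lo and 44.1 ± 3.58 TPM in LFA1-hi, and RAR genes at 41.9 ± 4.29 and 23.1 ± 0.716 TPM, without overlap, while RXR genes were at 65.8 ± 17.2 and 63.4 ± 2.59 TPM and overlapped.

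The receptors for thyroid hormone and vitamin D were low and did not pass the test. Thra, encoding thyroid hormone receptor alpha, had 8.78 ± 1.41 and 8.66 ± 1.06 CPM in LFA1-lo and LFA1-hi (log2 fold change −0.02, 95% interval −0.45 to 0.41), and its reads cannot be told from those of Nr1d1, which overlaps it, where the strand was not used. Vdr, the vitamin D receptor gene, had 13, 18 and 20 counts in LFA1-lo and 21, 13 and 35 counts in LFA1-hi (0.36, 95% interval −0.71 to 1.43). Thrb had 24 counts over the LFA1-lo and 33 over the LFA1-hi libraries and was not tested.

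Of the orphan and other receptors 6 of 18 could be tested and 0 passed, beside 15.6% lower and 16.1% higher among all genes. When LFA1-lo replicate 2 was left out, 2 of these 6 were lower, beside 20.5% lower among all genes. Counts this small are near those shares. Rora, encoding a receptor for sterols that acts in the circadian clock, was at 40.5, 26.2 and 44.6 CPM in LFA1-lo and at 24.6, 26.0 and 26.8 CPM in LFA1-hi (log2 fold change −0.52, edgeR adjusted p = 0.0541). Nr2c2, the orphan receptor TR4, was at 82.2, 48.0 and 82.2 CPM in LFA1-lo and at 43.9, 53.5 and 48.9 CPM in LFA1-hi (−0.54, adjusted p = 0.0739). In both genes LFA1-lo replicate 2 lay inside the LFA1-hi range, and the values without it were −0.72 (adjusted p = 5.27e-05) and −0.75 (adjusted p = 1.42e-05). Nr2c2 had counts that were not whole, and Mrps25 overlaps it, so part of its reads may belong to that gene.

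Esrra, the estrogen-related receptor that drives genes of mitochondrial energy metabolism, had 20.9 ± 1.97 and 19.6 ± 1.79 CPM in LFA1-lo and LFA1-hi (log2 fold change −0.09, 95% interval −0.38 to 0.20). Nr2c1, the relative of Nr2c2, had 18.9 ± 2.33 and 21.2 ± 3.20 CPM (0.16, −0.18 to 0.50), and Nr2f6 had 11.8 ± 2.11 and 10.2 ± 0.506 CPM (−0.21, −0.60 to 0.19). These 3 genes overlapped between the groups. Nr6a1, the germ cell nuclear factor, did not overlap but was low and missed the threshold (4.56 ± 0.301 against 2.87 ± 0.500 CPM, −0.66, edgeR adjusted p = 0.0776).

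The other 12 orphan receptor genes were at or near 0. Nr0b1, Nr1h4, Nr1h5, Nr2e1, Nr2e3, Nr2f1, Nr5a1 and Nr5a2 had 0 counts in all 6 libraries, where 3 counts correspond to 0.168 to 0.191 CPM. They include the bile acid receptor (Nr1h4) and the steroidogenic factor (Nr5a1). Nr0b2, the small heterodimer partner, is a receptor without a DNA-binding domain. It had 0 counts in each LFA1-lo library and 5, 9 and 2 counts in the LFA1-hi libraries. Against a floor of 3 counts over the LFA1-lo group the ratio was 5.13. This ratio takes the few LFA1-hi counts as exact, so it is not a lower bound. Nr2f2 had 5 counts in LFA1-lo replicate 1 alone, Nr1i2, the pregnane X receptor, had 3 counts in LFA1-hi replicate 2 alone and Nr1i3, the constitutive androstane receptor, had 2.03 counts in LFA1-hi replicate 3 alone.

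Among the coactivators, Ncoa4 was lower in LFA1-hi by the largest fold and in every fit run. Ncoa4, a coactivator also known as the receptor that delivers ferritin to lysosomes (chromosome 14, 32159879 to 32179855), stood at 326, 310.3 and 420.3 CPM in LFA1-lo replicates 1 to 3 and at 165, 173 and 182 CPM in LFA1-hi. LFA1-lo replicate 3 was the highest, and the groups were far from overlapping (log2 fold change −1.03, SE 0.12, edgeR adjusted p = 0.000279, 2.04-fold lower).

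The p160 coactivators Ncoa1, Ncoa2 and Ncoa3 bind ligand-filled receptors and recruit acetyltransferases. Ncoa1 was at 86.5, 89.3 and 93.5 CPM in LFA1-lo and at 70.2, 65.1 and 68.8 CPM in LFA1-hi, with narrow spread and no overlap (log2 fold change −0.40, SE 0.08, edgeR adjusted p = 0.00506). The call held in the 6 fits without a library and the 13 other alternative fits. Ncoa2 was at 117.5, 91.4 and 124 CPM in LFA1-lo and at 82.9, 90.2 and 81.3 CPM in LFA1-hi (−0.39, adjusted p = 0.0316). Its groups were separated by little more than 1 CPM and overlapped in TPM. The call was lost without LFA1-lo replicate 1 or 3 or any 1 of the LFA1-hi libraries (adjusted p up to 0.122). It was also lost with limma on log2 of TPM (adjusted p = 0.0755).

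Ncoa3 was the most abundant p160 gene, with 384, 290.1 and 377 CPM in LFA1-lo and 278, 279.9 and 295 CPM in LFA1-hi. LFA1-lo replicate 2 fell inside the LFA1-hi range, and the gene missed the threshold (log2 fold change −0.30, edgeR adjusted p = 0.0598) but passed without that library (−0.42, adjusted p = 6.18e-05). Ncoa3 held 64.3% ± 1.92 of the p160 TPM in LFA1-lo and 65.9% ± 1.04 in LFA1-hi, so the mix of the 3 genes overlapped between the groups. Ncoa6, which joins a histone methyltransferase complex, was at 130, 113 and 121.3 CPM in LFA1-lo and at 98.7, 109.6 and 96.4 CPM in LFA1-hi (−0.26, adjusted p = 0.0533) and passed without LFA1-lo replicate 2 (−0.31, adjusted p = 0.00574). It lay close to the threshold and also passed with RLE scaling, with the filter at 10 CPM, with DESeq2 and with limma voom.

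Of the corepressors Nrip1 was lower in LFA1-hi in every fit run. Nrip1, or RIP140, which represses nuclear receptors and also serves NF-kB in macrophages (chromosome 16, 76287403 to 76373827), was at 40.3, 34.3 and 38.7 CPM in LFA1-lo and at 23.6, 26.6 and 27.7 CPM in LFA1-hi, without overlap (log2 fold change −0.54, SE 0.11, edgeR adjusted p = 0.00619). Ncor1, the NCoR scaffold that carries the histone deacetylase HDAC3, was at 241.3, 228 and 233 CPM in LFA1-lo and at 206, 211 and 209 CPM in LFA1-hi. Its groups did not overlap, yet the difference was small and missed the threshold (−0.17, 95% interval −0.32 to −0.01, adjusted p = 0.09). It did pass with LFA1-lo replicate 2 left out (−0.19, adjusted p = 0.0254).

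LFA1-lo replicate 2 decided many of these calls. It was the lowest of the LFA1-lo libraries for 17 of the 24 tested genes (70.8%), against 38.2% of all tested genes, and lay below 80% of both others for 10 genes (41.7%, against 14.2% of all). Rxra, Rxrb, Rora, Ppard, Nr2c2 and Thra were among these, whereas for Pparg it was at 134% of the higher of the others. Without it 16 members were called lower and 0 higher, while the share of all genes called also rose, to 20.5% lower and 21.8% higher. The 10 named above were all kept, and Ppard, Rora, Nr2c2, Ncoa3, Ncoa6 and Ncor1 were added. Without any 1 of the other libraries 6 or 7 members were called lower, and Rara, Rarg, Pparg, Ncoa1, Ncoa4 and Nrip1 were called in each of the 6 fits without a library.

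**Figure D4:**
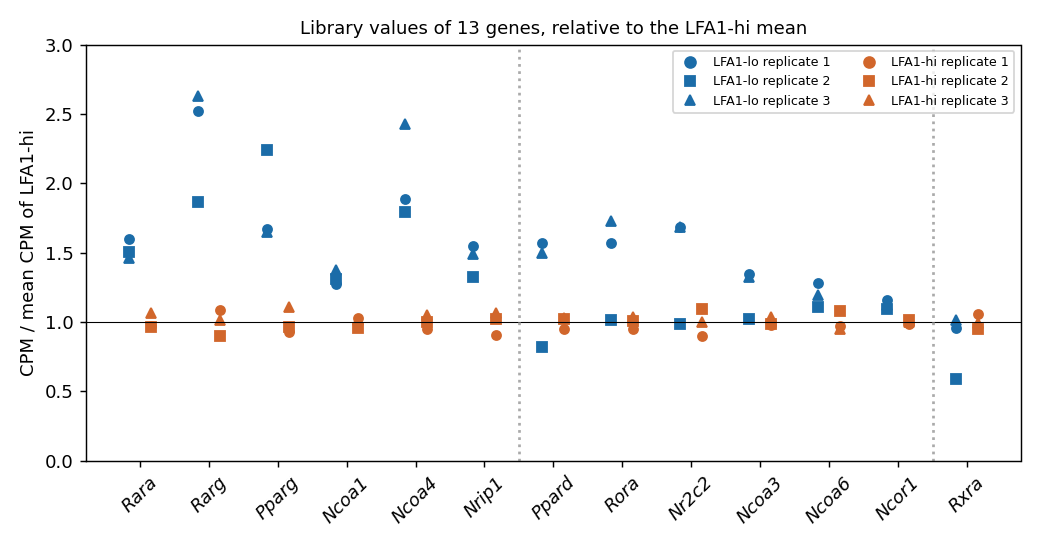
CPM of each library divided by the LFA1-hi mean of the gene, for the 6 genes called lower in every fit (left), the 6 genes added without LFA1-lo replicate 2 (middle, called in no other fit that leaves out a library) and Rxra (right). On the left every LFA1-lo library lies above every LFA1-hi library, and the squares of LFA1-lo replicate 2 are the lowest LFA1-lo points in the middle and on the right.

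Other subunits of corepressor complexes mostly did not pass, which also holds for the tested genes at large. Of 9 such genes 1 was lower and 0 higher in LFA1-hi (median log2 fold change −0.11). Among all genes 15.6% were lower and 16.1% higher. The gene that passed was Tbl1xr1, which helps to exchange corepressors for coactivators (174 ± 5.25 to 145 ± 0.344 CPM, −0.26, edgeR adjusted p = 0.0183), and it no longer passed when any 1 of the LFA1-hi libraries was left out. Without LFA1-lo replicate 2 the lower genes numbered 2.

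Coactivators outside the set changed in both directions, with 5 of 14 tested genes higher and 2 lower (median log2 fold change 0.19), beside 16.1% higher and 15.6% lower among all genes. The acetyltransferase gene Kat2a was higher, at 34.2 ± 1.65 against 53.5 ± 0.302 CPM (0.64, edgeR adjusted p = 0.000699). Kat2b, its paralog (0.44), the arginine methyltransferase gene Prmt1 (0.49) and the Mediator subunit gene Med14 (0.46) were higher too, as was Med24 (0.35). The lower genes were Crebbp (−0.39, adjusted p = 0.00381) and Ep300 (−0.43, adjusted p = 0.00186), the acetyltransferases that p160 coactivators recruit, which, like Med24, were named after their values were seen. The count of higher genes was 8 without LFA1-lo replicate 2, 2 without LFA1-lo replicate 1 or LFA1-hi replicate 2 or 3, and 1 without LFA1-hi replicate 1.

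Genes that make, carry or break down receptor ligands included 4 lower and 2 higher of 10 tested (median −0.55), beside 15.6% lower and 16.1% higher among all genes. Cyp27a1, which makes oxysterols, fell most, from 16.8 ± 3.29 to 3.11 ± 0.844 CPM (log2 fold change −2.43, SE 0.25, edgeR adjusted p = 0.000146). Ptgs1, a cyclooxygenase (−1.57, adjusted p = 0.00116), and Dhrs9, a retinol dehydrogenase (−1.56, adjusted p = 0.00369), were lower. So was Dhrs3, which turns retinaldehyde back into retinol (423 ± 32.6 to 269 ± 14.2 CPM, −0.65, adjusted p = 0.000475). Fabp5, which carries fatty acids and retinoic acid to PPARs, was higher (174 ± 16.3 to 364 ± 49.5 CPM, 1.06, adjusted p = 0.000194). The other higher gene was Rdh11, a retinal reductase (0.45), named after its value was seen. The higher genes numbered 1 when any 1 of the LFA1-hi libraries was left out and 3 without LFA1-lo replicate 2.

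Chaperones and cochaperones that hold steroid receptors in the cytoplasm were higher in 4 of 8 cases and lower in 0 (median 0.45), beside 16.1% higher among all genes. Fkbp5, a cochaperone and itself a target of the glucocorticoid receptor, rose from 22.5 ± 3.43 to 48.0 ± 0.0742 CPM (log2 fold change 1.09, SE 0.12, edgeR adjusted p = 0.000254). Hsp90aa1 (0.65, adjusted p = 0.0325), Stip1 (0.59) and Fkbp4 (0.41) were higher as well. The count was 6 without LFA1-lo replicate 2 and 3 in each of the other fits without a library.

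Known targets of the receptors are given beside the 31.7% of all genes called in either direction, and the glucocorticoid receptor and PPAR targets lay near that share. Of 13 tested glucocorticoid receptor targets 2 were higher and 3 lower (median −0.34), with Fkbp5 and Sgk1 (0.55) up and Zfp36, which destabilises inflammatory mRNAs (−1.56, edgeR adjusted p = 2.47e-05), Nfkbia (−0.81) and Per1 (−0.74) down, and 5 were lower without LFA1-lo replicate 2. Tsc22d3, or GILZ, a classic glucocorticoid target, was at 56.2 and 45.1 CPM (−0.32, adjusted p = 0.221). Of 15 tested PPAR targets 3 were higher and 3 lower (median 0.02). Fabp4 (1.30), Aqp9 (1.29) and Fabp5 were higher and Acadm, an enzyme of fatty acid oxidation, was lower (−0.57), as were Ucp2 (−0.54) and Hadha (−0.23). Cd36 had 1732 and 2214 CPM (0.35, adjusted p = 0.325), Plin2 812 and 1081 CPM (0.41, adjusted p = 0.0786), and Cpt1a 167 and 171 CPM (0.03, adjusted p = 0.765). Sgk1, Tsc22d3, Ucp2, Hadha, Cd36, Plin2 and Cpt1a were picked after their values were seen. Over the fits without a library the higher PPAR targets numbered 2 to 5, with 5 without LFA1-lo replicate 2, and the lower 2 to 4.

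Retinoic acid targets were largely undetected, with 6 of 12 at 0 in all libraries and 4 tested. Dhrs3, also such a target, was lower and Tgm2, a transglutaminase, higher (107 ± 19.0 to 140.1 ± 1.91 CPM, log2 fold change 0.39, edgeR adjusted p = 0.0344). The call of Tgm2 was lost when LFA1-lo replicate 1 or any 1 of the LFA1-hi libraries was left out. Of 4 tested vitamin D targets Spp1 (0.63) and Thbd (0.42) were higher, and Hbegf (−1.91) and Cd14 (−0.86) lower. The higher ones numbered 1 in all but 2 of the fits without a library and 0 without LFA1-hi replicate 3, and of the lower ones Cd14 alone passed when any 1 of the LFA1-hi libraries was left out. Of 13 tested targets of the estrogen-related receptors 5 were higher and 1 lower (median 0.20), led by Cycs, or cytochrome c (0.97, adjusted p = 0.00846), and Idh3a, an enzyme of the citric acid cycle (0.85, adjusted p = 0.00424). Over the fits without a library 3 to 6 of them were higher, with 3 without LFA1-hi replicate 1, and 1 or 2 lower, with 2 without LFA1-lo replicate 1. Their coactivator gene Ppargc1a had counts in LFA1-lo replicates 1 and 3 alone, of at most 0.118 CPM.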

How the data were processed

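The members and gene lists were chosen with earlier results of these data known. RNA depleted of rRNA was sequenced on an Illumina instrument, per the labels' protocols. Tools named in the submitters' processing notes are RSEM, Trim Galore and bcl2fastq, on GRCm38. Tool versions or a strand setting were not given in the sources used here. Per gene and library, the authors deposited RSEM's expected counts and TPM, per the file headers. Transcript lengths were also read from the deposited files.

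Expected counts were rounded and tested as LFA1-hi against LFA1-lo with edgeR 4.0.16 (R 4.3.3; TMM scaling, filterByExpr with a count minimum of 10, robust quasi-likelihood fit, Benjamini-Hochberg adjustment, threshold 0.05). The fit used all 11692 genes passing the filter. CPM are rounded counts scaled to the TMM-adjusted library size, with factors of 0.9557 to 1.034, and 3 counts correspond to 0.168 to 0.191 CPM. This floor covers counting error only. TPM served to compare levels between genes, for sums, shares and ratios of genes by group, and in the alternative fits on log2 of TPM. The fit was tested on simulated data, where 11 of 121 calls were false. It recovered 36 of the genes changed 1.5-fold and 74 of equally many changed 2-fold, so small differences can be missed. The simulation gave 121 calls where the data gave 3705, so the adjusted threshold was stricter there. These counts therefore do not measure the recovery in the data. No 2 libraries were duplicates.

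Every member is named. From each other list, up to 4 called genes with the largest change and a mean CPM of at least 1 are named. The alternatives were other scalings and filters, DESeq2 1.42.0, limma 3.58.1 (voom, and log2 of TPM plus 0.1 or 1), unrounded counts, removal of rRNA and small RNA genes, a replicate block, a fit that is not robust and leaving out each library. Counts in the other lists without each library were added after seeing the data. Promoter windows came from RefSeq (GRCm38.p6). FPKM were not used. Some genes of these lists are not reported here.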

Additional observations from a re-analysis of the deposited data

How the results depend on the processing

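Of the refitted log2 fold changes of single members, 399 kept their direction and side of the threshold, 33 no longer passed, 13 newly passed and 6 changed sign. The sign changes were of Thra, at 0.04 with library totals only and −0.15 to 0.06 without 1 library each, and of Vdr, at −0.04 without LFA1-hi replicate 3 and up to 0.60 without another library. Without 1 library each, 6 to 16 members were called lower, with 16 without LFA1-lo replicate 2, and 2288 to 5032 genes were called in all. DESeq2 called 1 member higher (Nr0b2). With no filter on low counts 8 members were called lower, losing Nr3c1 and Nr3c2. On log2 of TPM 8 were called lower, losing Rxrb and Ncoa2. Library totals only gave 7 members lower, losing Nr3c1, Rxrb and Ncoa2, and moved the all-gene split to 60.9% higher, with a median shift of 0.06. Causes were not tested.

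With a replicate block 6 members were called lower, losing Nr3c1, Nr3c2, Rxrb and Ncoa2. Libraries with the same number had correlations of 0.037, 0.0182 and −0.0718 in their deviations from the group means. Not every library correlated best with its own number. With so few libraries these values cannot show whether libraries of the same number share a source. Members with fewer counts than the filter asks were not tested with edgeR, and for most of them the depth allows no statement on a difference.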

Other observations

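The transcript level of the RXR genes relative to partner genes of the set differed between the groups by library, which was not tested. The TPM of the RXR genes per summed TPM of the RAR, PPAR, systematic Nr1, thyroid hormone and vitamin D receptor genes of the set was 0.582, 0.366 and 0.605 in LFA1-lo replicates 1 to 3 and 0.944, 0.796 and 0.786 in LFA1-hi replicates 1 to 3. Rxra per Pparg was 0.878, 0.378 and 0.912 in LFA1-lo and 1.77, 1.40 and 1.39 in LFA1-hi. Neither ratio overlapped between the groups, and the liver X receptor genes, which are also RXR partners, are not in these sums.

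Summed over the set, receptors were at 304 ± 27.9 TPM in LFA1-lo and 232 ± 5.19 TPM in LFA1-hi (SD, n = 3 each), and coregulators at 406 ± 51.0 and 272 ± 10.8 TPM.

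Esr1 was ordered differently by its counts and its TPM. RSEM's mean transcript length for Esr1 was 6358, 4444 and 6333 bases in LFA1-lo and 4363, 6358 and 6336 bases in LFA1-hi, so 1 library in each group had a shorter mean length than the others. Its TPM were 1.66, 1.96 and 2.88 in LFA1-lo and 2.40, 1.40 and 0.99 in LFA1-hi. The counts of this gene are few, and the assignment was not tested.

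Promoter windows of tested members had a median GC content of 62.8% (34 windows), those of members not tested 51.6% (17 windows) and all RefSeq windows 52.4%, given as a description without a test.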
